A study of Mus musculus with 9 samples.

Results

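The fibrillar and type VI collagens studied here are 9 genes: Col1a1 and Col1a2 (type I), Col3a1 (type III), Col5a1, Col5a2 and Col5a3 (type V), and Col6a1, Col6a2 and Col6a3 (type VI). They were taken by gene symbol from a table of 24421 genes, and all 9 were among the 13901 genes with enough counts to be tested. None of the 9 chains differed between R-propranolol-treated and vehicle-treated tumors beyond the spread between tumors. Over all 9 tumors the chains varied to different degrees. Col1a2 varied most, 529-fold from vehicle 4 to R-propranolol 2, and Col6a2 least, 2.20-fold.

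Collagens are secreted proteins built from chains wound into a triple helix. Types I and III form the main fibrils of connective tissue, type V is built into those fibrils and limits their width, and type VI forms beaded filaments between fibrils and the surfaces of cells. Fibroblasts and mural cells are known as main sources of these chains, and the fibrous residue that a regressing hemangioma leaves behind is rich in collagen.

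RNA was sequenced from tumors grown in the flank of male athymic Nu/Nu nude mice from bEnd.3 cells, murine endothelial cells that the middle T antigen of polyoma virus has transformed. The R-propranolol group (5 tumors) received the R enantiomer of the beta blocker propranolol into the peritoneum at 6 mg/kg per day on 5 days a week, and the vehicle group (4 tumors) received ethanol diluted in DPBS on the same schedule. R-propranolol was begun on the second day after inoculation. All tumors came from 1 transformed line in hosts that lack T cells, and the ages of the mice were not stated in the sources used here. The design asks how R-propranolol changed the tumor transcriptome. Each library holds the tumor cells together with the stroma of the host, so that fewer cells of a type and less RNA per cell cannot be told apart. The p-values measure only the spread between these tumors.

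Counts over genes ranged from 20599904 to 24949010 in the vehicle-treated tumors and from 21084749 to 27852630 in the R-propranolol-treated tumors. Levels are given as CPM (counts per 1000000 after TMM scaling, which evens out library composition). The tumor called R-propranolol 5 stood apart: the share of counts from 20 skeletal muscle genes was 16.1%, against at most 0.0619% in any other tumor, and across genes the r of its log2 CPM with any other library was at most 0.799. It was the highest tumor for 36.5% and the lowest for 42.1% of all genes tested, and for 0 and 3 of the 9 collagen chains. R-propranolol 2 was the tumor with the highest level for 14.6% of all genes tested and for 7 of the 9 collagen chains. Both tumors belong to the same group. For most of the chains and named partners a value without 1 of them is also given. The endothelial markers fixed for the check (10 genes, all tested) summed to 847 to 1056 CPM in vehicle-treated and 678 to 1159 CPM in R-propranolol-treated tumors, so endothelial RNA was present in every tumor.

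Positions are given on GRCm38 (mm10), from GENCODE M21. The chain that varied most and the chain with the highest level are shown by their promoters, from 250 bases before the start site listed by RefSeq (GRCm38.p6) to 50 bases after it. Col1a2 (chr6:4505368-4505667, plus strand) and Col3a1 (chr1:45311288-45311587, plus strand) are printed 5′ to 3′, with capitals for the 3 motifs searched on both strands: the CCAAT box (CCAAT or ATTGG), the GC box (GGGCGG or CCGCCC) and the TATA box (TATAAA or TTTATA).
Col1a2: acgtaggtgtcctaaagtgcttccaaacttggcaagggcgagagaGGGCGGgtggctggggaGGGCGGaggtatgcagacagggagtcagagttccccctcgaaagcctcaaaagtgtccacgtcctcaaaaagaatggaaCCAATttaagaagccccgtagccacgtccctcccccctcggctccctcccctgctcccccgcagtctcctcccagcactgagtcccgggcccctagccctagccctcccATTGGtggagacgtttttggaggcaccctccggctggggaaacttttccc
Col3a1: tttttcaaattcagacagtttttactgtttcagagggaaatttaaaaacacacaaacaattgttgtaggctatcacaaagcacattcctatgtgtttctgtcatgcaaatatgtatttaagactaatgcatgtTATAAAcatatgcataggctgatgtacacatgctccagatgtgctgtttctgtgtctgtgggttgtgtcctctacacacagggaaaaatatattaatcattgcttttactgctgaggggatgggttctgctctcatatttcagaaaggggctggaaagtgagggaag
The Col1a2 window held 2 CCAAT matches and 2 GC box matches and no TATA match, while the Col3a1 window held 1 TATA match and neither of the others. Counted from the start site, the Col3a1 TATA match began at -117 and the Col1a2 CCAAT matches at -109 and 0. The whole Col1a2 window lies inside the gene as GENCODE places it, from chr6:4504814, so its positions hold for the RefSeq start only. All of these are matches of letters, and whether the sites act as such boxes was not tested. The windows also differed in base composition, with 61.0% G and C and 13 CpG dinucleotides for Col1a2 against 37.7% and 0 for Col3a1. Among the 32851 promoters of the table, 37.4% held a CCAAT match, 35.7% a GC box match and 13.6% a TATA match, and the median was 7 CpG. The letters describe these windows and were not tied to the counts. Promoters of Col5a1, Col5a3, Col6a1, Col6a2 and Col6a3 were also in the table, and of these Col5a3 held 1 CCAAT match. Col1a1 and Col5a2 had no entry.

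Compared per kilobase of the longest coding transcript, Col3a1 was the most abundant chain, with a median of 754 CPM per kilobase over the 9 tumors. Col6a1 and Col1a1 followed at 247 and 246, then Col6a3 at 176, Col5a3 at 121, Col6a2 at 95.7, Col5a1 at 67.8, Col1a2 at 62.4 and Col5a2 at 36.3. Col3a1 was above Col6a1 in 9 of 9 tumors, with a mean log2 difference of 2.02 ± 0.88 (SD, n = 9), and Col5a3 was above Col6a2 in 8 of 9 (0.47 ± 0.32). The other 6 pairs of neighbours differed by less than the SD of their difference between tumors. Col6a1 was above Col1a1 in 4 of 9 tumors, and Col1a2 was above Col5a2 in 5 of 9. Together the 9 chains took 1.01% to 1.41% of counts in the vehicle-treated tumors, and 0.904% to 1.27% in the R-propranolol-treated tumors other than R-propranolol 2, in which they took 3.64%.

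Type I collagen is a trimer of 2 Col1a1 chains and 1 Col1a2 chain. Col1a1 (chr11:94936224-94953042, plus strand) was at 1461, 1529, 1749 and 971 CPM in vehicle 1 to vehicle 4, and at 1401, 9713, 1045, 1118 and 2306 CPM in R-propranolol 1 to R-propranolol 5. R-propranolol 2 and R-propranolol 5 lay above all other tumors, the other 3 R-propranolol-treated tumors lay within the vehicle range, and so the groups overlapped. The fitted log2 fold change of Col1a1 (R-propranolol over vehicle) was 1.13 ± 0.71 (SE), and its p from the quasi-likelihood test of edgeR, adjusted over all genes tested, was 0.876. Without R-propranolol 2 it was 0.045 ± 0.31.

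Col1a2 (chr6:4504814-4541544, plus strand) was at 363, 334, 462 and 10.9 CPM in vehicle 1 to vehicle 4, and at 161, 5763, 75.7, 44.3 and 2306 CPM in R-propranolol 1 to R-propranolol 5. The highest and the second lowest values were both in R-propranolol-treated tumors, the lowest was in vehicle 4, and the groups overlapped. The value of vehicle 4 rests on 231 counts, whose exact Poisson 95% interval of 202 to 263 counts covers counting error only and corresponds to 9.53 to 12.4 CPM. The fitted change on the log2 scale was 2.51 ± 1.58 (SE, 95% interval -1.07 to 6.10, edgeR adjusted p = 0.876). It was 1.16 ± 1.43 without R-propranolol 2, 2.35 ± 1.64 without R-propranolol 5 and 2.10 ± 1.61 without vehicle 4. Of the 13901 genes tested, 113 (0.813%) had a larger log2 range over the 9 tumors than Col1a2, against 1756 (12.6%) for Col1a1.

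The ratio of Col1a2 to Col1a1 therefore differed widely from tumor to tumor, although both chains build the same trimer. Per kilobase it was 0.275, 0.242, 0.293 and 0.0124 in vehicle 1 to vehicle 4, and 0.127, 0.658, 0.0804, 0.0439 and 1.11 in R-propranolol 1 to R-propranolol 5. Vehicle 4 had the lowest ratio and R-propranolol 5 the highest, 89.1-fold apart, and the groups overlapped. In vehicle 4 Col1a2 was at 0.0313 times the median of the other 8 tumors while Col1a1 was at 0.650 times.

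Type III collagen is a homotrimer that is laid down together with type I in extensible tissue. Col3a1 (chr1:45311538-45349706, plus strand) was at 3328, 4727, 5284 and 4051 CPM in vehicle 1 to vehicle 4, and at 4193, 14469, 4078, 3297 and 9417 CPM in R-propranolol 1 to R-propranolol 5. As for type I, R-propranolol 2 and R-propranolol 5 were highest and the other 3 overlapped with the vehicle group. The log2 fold change was 0.71 ± 0.48 (SE, edgeR adjusted p = 0.876), and 0.28 ± 0.38 without R-propranolol 2. An annotated miRNA gene on the same strand, Gm47302, shares 141 of its 9816 exon bases. The ratio of Col3a1 to Col1a1 per kilobase was 2.43 to 4.45 in the vehicle group and 1.59 to 4.35 in the R-propranolol group, with R-propranolol 2 the lowest.

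**Figure D1:**
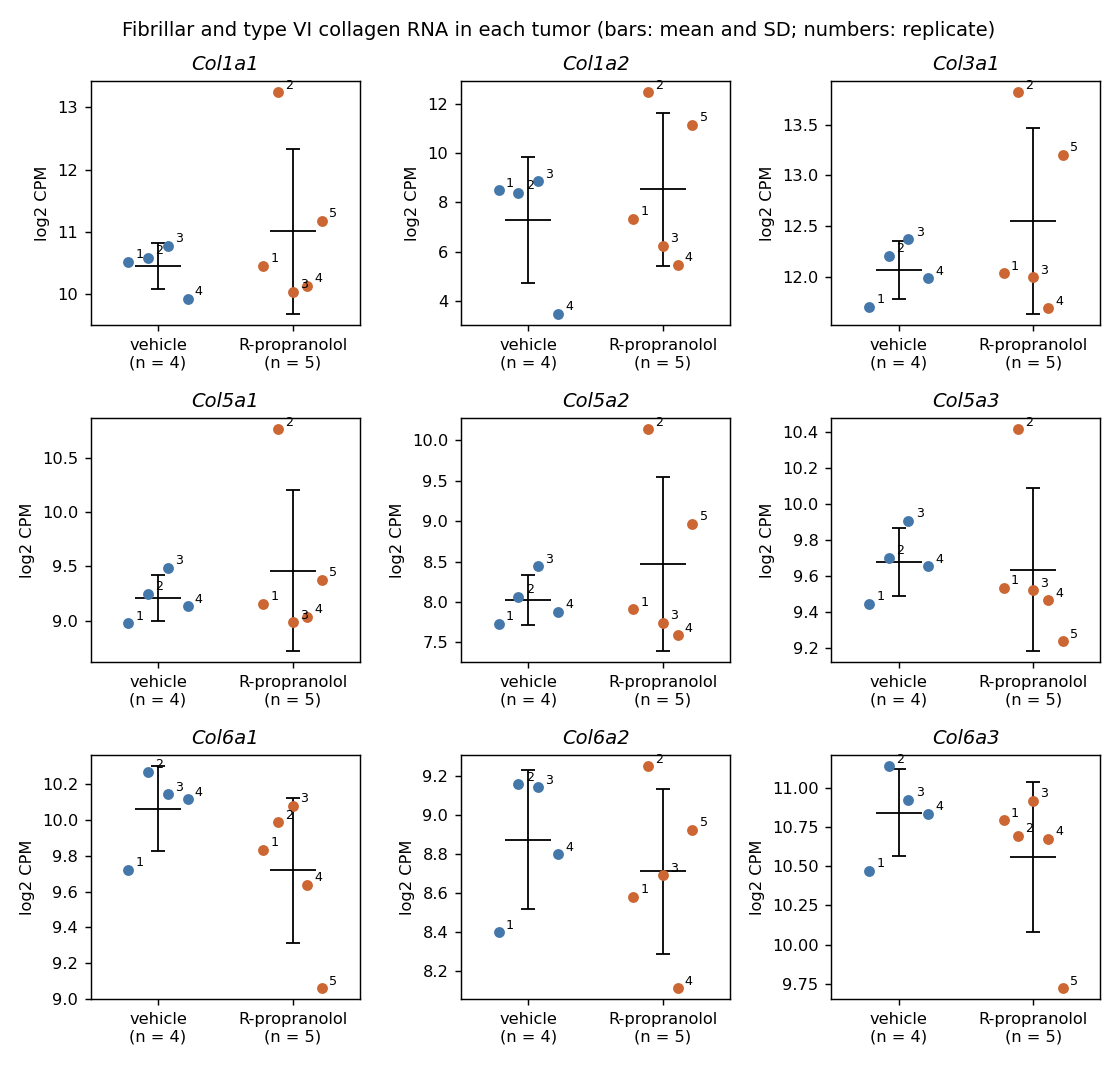
Level of each collagen chain in log2 CPM (vertical axis, a different scale in each panel) in 4 vehicle-treated (blue) and 5 R-propranolol-treated (orange) tumors, with replicate numbers beside the points and the mean and SD as bars. R-propranolol 2 is highest for 7 of the 9 chains, and Col1a2 is lowest in vehicle 4, at a log2 CPM of 3.46.

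Type V collagen combines Col5a1 with Col5a2 and, in some tissues, with Col5a3. Col5a1 (chr2:27886425-28039514, plus strand) was at 504, 608, 717 and 562 CPM in vehicle 1 to vehicle 4, and at 570, 1734, 507, 525 and 664 CPM in R-propranolol 1 to R-propranolol 5. Only R-propranolol 2 lay outside the vehicle range. The fitted change on the log2 scale was 0.42 ± 0.39 (SE, edgeR adjusted p = 0.876), and it turned to -0.074 ± 0.16 without R-propranolol 2. The transcripts 2810430I11Rik and Gm13372 on the other strand share 99 and 113 of its 8490 exon bases, and whether reads were counted by strand was not stated in the sources used here.

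Col5a2 (chr1:45374321-45503282, minus strand) was at 212, 268, 347 and 235 CPM in vehicle 1 to vehicle 4, and at 241, 1127, 214, 192 and 501 CPM in R-propranolol 1 to R-propranolol 5. Its 2 highest tumors were again R-propranolol 2 and R-propranolol 5, and R-propranolol 4 was below every vehicle-treated tumor. The log2 fold change was 0.78 ± 0.54 (SE, edgeR adjusted p = 0.876), and 0.12 ± 0.33 without R-propranolol 2. Its ratio to Col5a1 per kilobase was 0.530 to 0.615 in the vehicle group and 0.464 to 0.958 in the R-propranolol group.

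Col5a3 (chr9:20770050-20815067, minus strand) was at 697, 832, 960 and 806 CPM in vehicle 1 to vehicle 4, and at 742, 1366, 734, 707 and 603 CPM in R-propranolol 1 to R-propranolol 5. R-propranolol 2 was the highest tumor and R-propranolol 5, which was high for the type I and III chains, was the lowest. The fitted change on the log2 scale was 0.012 ± 0.25 (SE, 95% interval -0.56 to 0.58, edgeR adjusted p = 0.988), and its sign depended on the settings. The ratio of Col5a3 to Col5a1 per kilobase was 1.84 to 1.97 in the vehicle group, and the R-propranolol group reached from 1.08 in R-propranolol 2 to 1.99 in R-propranolol 3.

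The chains of type VI collagen assemble from 1 each of Col6a1, Col6a2 and Col6a3, and their order across tumors differed from that of the type I and III chains. Col6a1 (chr10:76708792-76726168, minus strand) was at 844, 1232, 1131 and 1109 CPM in vehicle 1 to vehicle 4, and at 912, 1013, 1082, 796 and 534 CPM in R-propranolol 1 to R-propranolol 5. R-propranolol 5 was the lowest tumor and R-propranolol 2 lay in the middle. The log2 fold change was -0.31 ± 0.22 (SE, 95% interval -0.82 to 0.19, edgeR adjusted p = 0.876), and -0.18 ± 0.14 without R-propranolol 5.

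Col6a2 (chr10:76595762-76623630, minus strand) was at 337, 572, 566 and 445 CPM in vehicle 1 to vehicle 4, and at 383, 609, 413, 276 and 486 CPM in R-propranolol 1 to R-propranolol 5. The highest and the lowest tumor, R-propranolol 2 and R-propranolol 4, were in the same group. The fitted change on the log2 scale was -0.15 ± 0.25 (SE, edgeR adjusted p = 0.881), -0.30 ± 0.23 without R-propranolol 2 and -0.20 ± 0.25 without R-propranolol 5.

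Col6a3 (chr1:90765923-90843971, minus strand), the longest of the type VI chains here, was at 1421, 2255, 1946 and 1829 CPM in vehicle 1 to vehicle 4, and at 1776, 1657, 1938, 1635 and 843 CPM in R-propranolol 1 to R-propranolol 5. R-propranolol 5 was the lowest tumor, and the other 4 R-propranolol-treated tumors lay within the vehicle range. The log2 fold change was -0.25 ± 0.26 (SE, edgeR adjusted p = 0.878), and -0.091 ± 0.14 without R-propranolol 5. The ratio of Col6a3 to Col6a1 per kilobase was the steadiest of the 6 ratios computed, between 0.641 and 0.834 in all 9 tumors, or 1.30-fold from lowest to highest. The ratio of Col6a2 to Col6a1 was 0.352 to 0.441 in the vehicle group and 0.306 to 0.802 in the R-propranolol group, where R-propranolol 5 had the highest value.

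**Figure D2:**
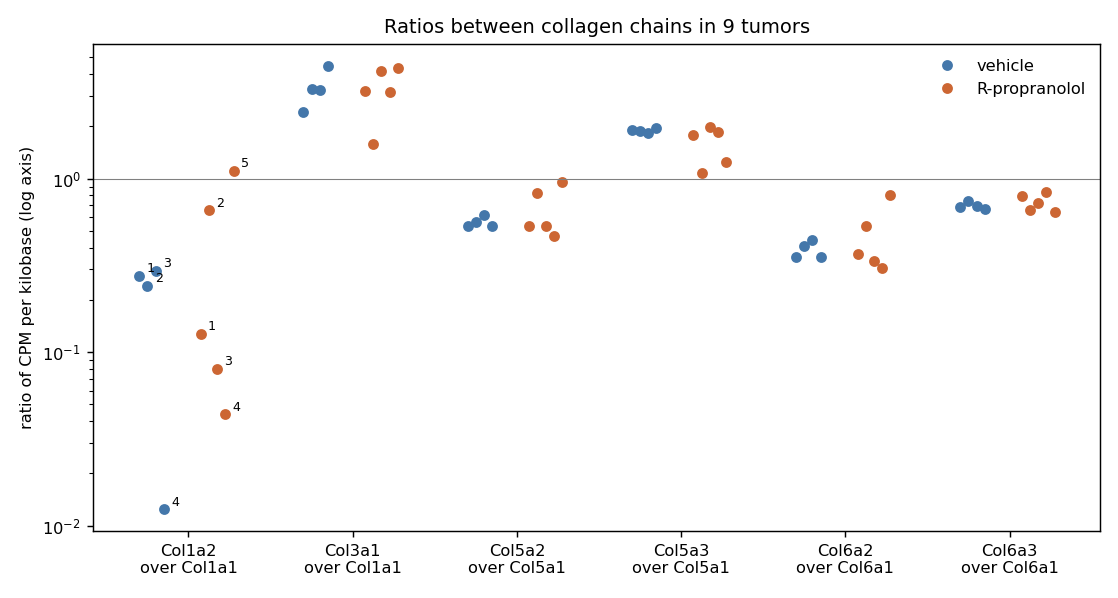
Ratios between collagen chains, in CPM per kilobase of coding transcript (log axis), for 4 vehicle-treated (blue) and 5 R-propranolol-treated (orange) tumors, 1 point a tumor, with replicate numbers for the first ratio. Col1a2 over Col1a1 runs from 0.0124 to 1.11, while Col6a3 over Col6a1 stays between 0.641 and 0.834.

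As a group, 0 of the 9 chains passed an edgeR adjusted p of 0.05, where 0% of the 13901 genes tested did. At an unadjusted p under 0.05 the count was 0 of 9 chains, beside 2.3% of all genes, and 0 of 9 chains had groups that did not overlap, beside 1.26% of all genes. The exact permutation test over the 126 labellings of the tumors gave unadjusted p between 0.167 for Col6a1 and 0.865 for Col5a3, two-sided, and an adjusted p of 1 for every chain. With DESeq2, Col1a2 had an unadjusted p of 0.0455 and an adjusted p of 0.909, and no other chain was under 0.05 unadjusted. The 95% interval of the log2 fold change was -0.48 to 2.73 for Col1a1, so that a level several times higher could not be told from no change with these tumors.

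Fitted log2 fold changes were below 0 for 3 of the 9 chains, the 3 type VI chains, and for 45.7% of all genes. Their median was 0.42, beside 0.029 over all genes. Without R-propranolol 2 the chains split into 4 above and 5 below 0 and the median was -0.074, and without R-propranolol 5 the split was 6 and 3 and the median 0.47. In R-propranolol 2 the level, relative to the median of the other 8 tumors, was 23.3-fold for Col1a2, 6.79-fold for Col1a1, 4.74-fold for Col5a2, 3.5-fold for Col3a1, 3.06-fold for Col5a1 and 1.85-fold for Col5a3. The type VI chains in the same tumor were at 1.02-fold for Col6a1, 1.42-fold for Col6a2 and 0.920-fold for Col6a3.

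**Figure D3:**
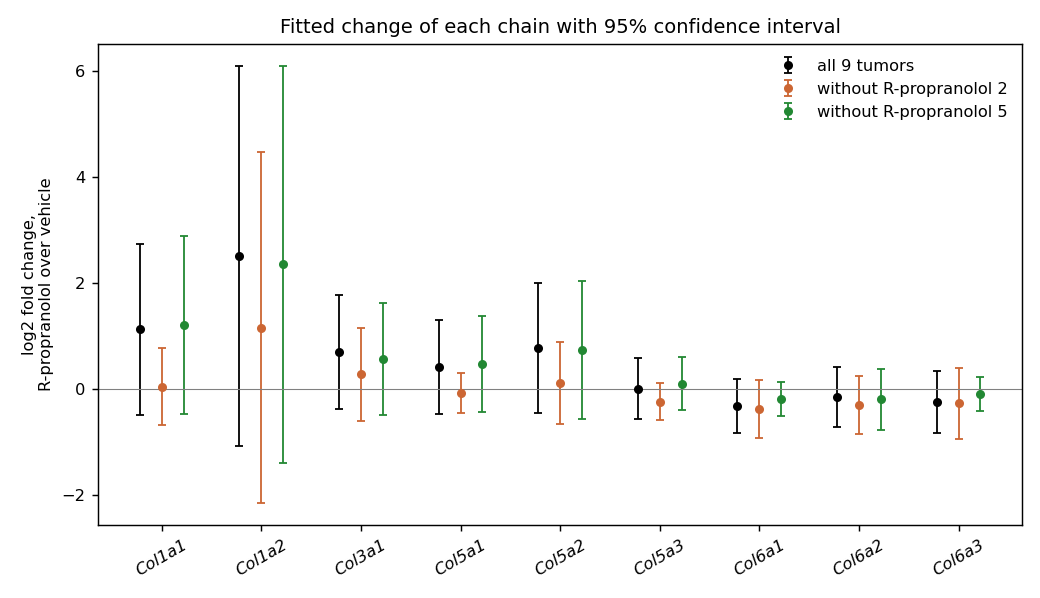
Fitted log2 fold change of each collagen chain, R-propranolol over vehicle (vertical axis), with the 95% confidence interval as bars, for all 9 tumors (black), without R-propranolol 2 (orange) and without R-propranolol 5 (green). Every interval shown spans 0, and Col1a1 lies at 1.13 with all tumors and at 0.045 without R-propranolol 2.

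The other chains of these families were low, apart from Col27a1, a fibrillar chain found in cartilage and other tissues. Of 8 such genes 6 could be tested, 0 passed the adjusted test, and 5 had fitted values above 0. Col27a1 was at 106 to 150 CPM in the vehicle group and 30.7 to 147 CPM in the R-propranolol group, with the lowest value in R-propranolol 5 and a log2 fold change of -0.26 ± 0.38, which was -0.023 ± 0.14 without that tumor. Col24a1, a minor fibrillar chain, was at 0.0472 to 0.749 CPM in the vehicle group, and at 0.245, 11.5, 0.178, 0.163 and 2.38 CPM in R-propranolol 1 to R-propranolol 5. It had the same 2 highest tumors as the type I and III chains, with a log2 fold change of 2.84 ± 1.47 and an edgeR adjusted p of 0.876. With 1 tumor left out at a time, the change of Col24a1 ranged from 2.47 to 3.33.

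Collagen chains pass through hydroxylation, folding, trimming and crosslinking before they form fibrils, and 56 genes of these steps and of collagen binding were examined. Of these 53 could be tested, 0 passed an adjusted or an unadjusted p of 0.05 in edgeR, and 38 had fitted values above 0. R-propranolol 2 was the highest tumor for 33 of the 56 (58.9%), beside 14.6% of all genes.

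Among 19 genes of chain modification, 13 had fitted values above and 6 below 0, with a median of 0.095. P4hb, a subunit of prolyl 4-hydroxylase and the most abundant of them per kilobase, was at 742 to 1016 CPM in the vehicle group and 678 to 1300 CPM in the R-propranolol group (log2 fold change 0.040 ± 0.20). P3h4, a partner of the lysyl hydroxylase complex, was at 2.92 to 4.42 CPM in the vehicle group, and at 3.05, 37.2, 3.46, 3.62 and 25.4 CPM in R-propranolol 1 to R-propranolol 5. Its high tumors were those of Col1a2, and its log2 fold change was 1.88 ± 0.84 (edgeR adjusted p = 0.876) with all tumors, 1.18 ± 0.74 without R-propranolol 2 and 1.57 ± 0.84 without R-propranolol 5. Plod2, a lysyl hydroxylase that acts on the ends of the chains, went the other way in R-propranolol 5, at 61.0 CPM against 220 to 388 CPM in all other tumors (log2 fold change -0.38 ± 0.43, and -0.13 ± 0.18 without R-propranolol 5).

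All 6 tested genes of propeptide processing had fitted values above 0, with a median of 1.14, and 5 of 6 did without R-propranolol 2. Adamts14, a protease that removes the amino-terminal propeptide, was at 0.707 to 5.05 CPM in the vehicle group, with the lowest value in vehicle 4, and at 2.52, 33.7, 1.64, 1.75 and 30.5 CPM in R-propranolol 1 to R-propranolol 5. This is the order of Col1a2 in its 2 highest and its lowest tumor, and the log2 fold change was 2.08 ± 1.12 (edgeR adjusted p = 0.876) with all tumors, 1.47 ± 1.10 without R-propranolol 2 and 1.57 ± 1.08 without R-propranolol 5. Pcolce, which speeds removal of the carboxy-terminal propeptide, ranged from 163 to 229 CPM in the vehicle group and 179 to 321 CPM in the R-propranolol group (log2 fold change 0.25 ± 0.20, and 0.14 ± 0.19 without R-propranolol 2).

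Of the 5 lysyl oxidases, which crosslink the fibrils, 3 had fitted values above and 2 below 0, with a median of 0.65. Lox was at 87.6, 92.3, 81.9 and 64.1 CPM in vehicle 1 to vehicle 4, and at 64.9, 905, 80.6, 73.1 and 147 CPM in R-propranolol 1 to R-propranolol 5. R-propranolol 2 was 11.1-fold above the median of the other 8 tumors, and the log2 fold change of 1.64 ± 0.85 (edgeR adjusted p = 0.876) became 0.17 without it. Loxl2, the most abundant of the family per kilobase, was at 924 to 1322 CPM in the vehicle group and 1007 to 1418 CPM in R-propranolol 1 to R-propranolol 4, but at 364 CPM in R-propranolol 5 (log2 fold change -0.21 ± 0.34, and 0.0052 ± 0.14 without R-propranolol 5). Loxl4 was at 38.6 to 58.3 CPM and 35.1 to 42.7 CPM in the 2 groups (log2 fold change -0.21 ± 0.14).

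All 11 tested genes for fibril-associated proteins had fitted values above 0, with a median of 1.32, and 9 of 11 did without R-propranolol 2. Fn1, which encodes fibronectin, the scaffold on which collagen fibrils are laid down, was the most abundant per kilobase, with 7135 to 10304 CPM in the vehicle group and 4315 to 12150 CPM in the R-propranolol group (log2 fold change 0.013 ± 0.34). Aspn, a small proteoglycan that binds collagen, was at 1.75 to 6.37 CPM in the vehicle group, and at 3.33, 53.7, 2.21, 1.38 and 51.3 CPM in R-propranolol 1 to R-propranolol 5 (log2 fold change 2.31 ± 1.18, 1.70 ± 1.18 without R-propranolol 2 and 1.73 ± 1.14 without R-propranolol 5). Its 2 highest tumors were again R-propranolol 2 and R-propranolol 5.

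Among 12 receptors and uptake genes, 5 had fitted values above and 7 below 0, with a median of -0.026. Itgb1, the integrin chain shared by the collagen-binding integrins, was at 719 to 866 CPM in the vehicle group and 632 to 964 CPM in the R-propranolol group (log2 fold change -0.038 ± 0.15). Antxr2, a receptor that binds type VI collagen, was at 165 to 232 CPM and 122 to 205 CPM (log2 fold change -0.30 ± 0.16, edgeR adjusted p = 0.876). Cspg4, a proteoglycan of mural cells that also binds type VI collagen, was at 1.93 to 3.59 CPM in the vehicle group, and at 2.24, 15.6, 1.64, 1.43 and 43.8 CPM in R-propranolol 1 to R-propranolol 5 (log2 fold change 2.30 ± 1.09, and 0.98 ± 0.78 without R-propranolol 5).

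**Figure D4:**
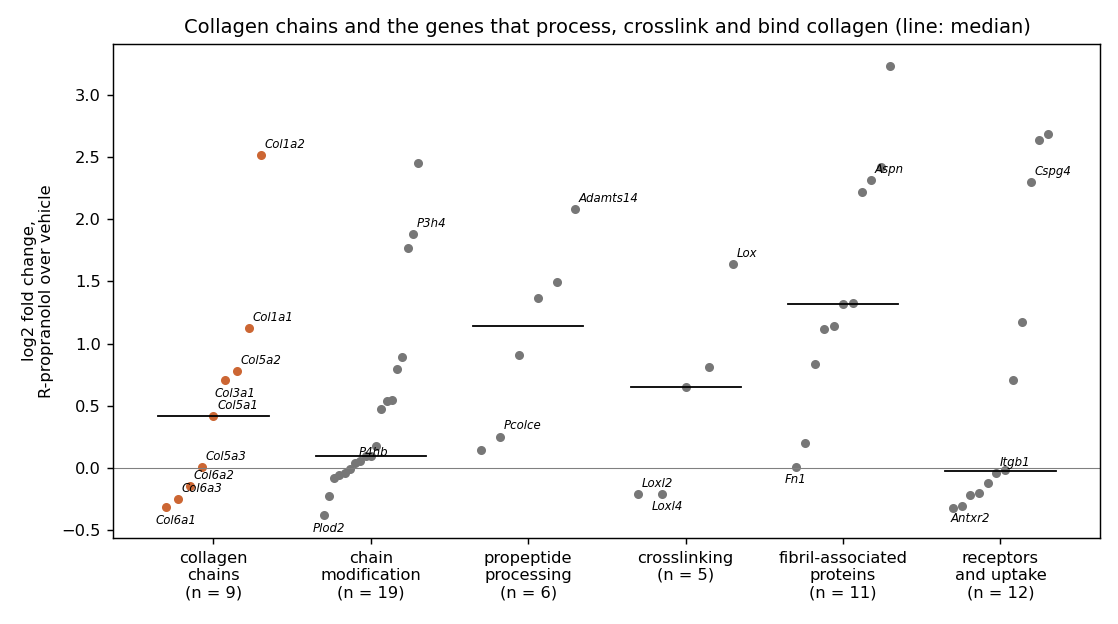
Fitted log2 fold change, R-propranolol over vehicle (vertical axis), of the 9 collagen chains (orange) and of the tested genes of 5 partner lists (grey), 1 point a gene, with the median as a line. None passed the adjusted test. The medians run from -0.026 for receptors and uptake to 1.32 for fibril-associated proteins.

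The summed markers of fibroblasts, of mural cells and of macrophages were highest in R-propranolol 5 and next in R-propranolol 2, though not every single marker was. Of the 10 endothelial markers, 6 were highest in R-propranolol 2 and 2 in R-propranolol 5, while 2 were lowest in R-propranolol 5. The type I and III chains and Col5a2 were highest in R-propranolol 2 and next in R-propranolol 5, while Col5a3 was lowest in R-propranolol 5. The 10 fibroblast markers, all tested, summed to 401 to 493 CPM in the vehicle group, to 394 to 427 CPM in R-propranolol 1, R-propranolol 3 and R-propranolol 4, to 1023 CPM in R-propranolol 2 and to 2049 CPM in R-propranolol 5. Fitted values were above 0 for 10 of 10 and 0 passed the test. Pdgfra, the most abundant of them per kilobase, did not follow this, at 242 to 280 CPM in the vehicle group and 214 to 285 CPM in the R-propranolol group. Its highest value was in R-propranolol 2 and its lowest in R-propranolol 5. The 10 mural markers summed to 135 to 235 CPM in the vehicle group and 150 to 9143 CPM in the R-propranolol group, with 529 CPM in R-propranolol 2 and the highest sum in R-propranolol 5. Des, which skeletal muscle also expresses, made up 8636 CPM of that highest sum, and without Des the sums were 117 to 168 CPM in the vehicle group, 496 CPM in R-propranolol 2, 507 CPM in R-propranolol 5 and at most 143 CPM in the other 3. Abcc9 alone made up 221 CPM of the sum without Des in R-propranolol 5, and 31.8 CPM of that in R-propranolol 2. Pdgfrb, the most abundant mural marker per kilobase, ranged from 54.3 to 97.9 CPM and from 50.6 to 154 CPM in the 2 groups. It too was highest in R-propranolol 2 and lowest in R-propranolol 5.

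In vehicle 4, where Col1a2 was lowest, 3 of 10 fibroblast, 3 of 10 mural, 5 of 10 adipocyte and 4 of 8 macrophage markers were also lowest of the 9 tumors, beside 9.77% of all genes tested. The counts were 0 of 10 for endothelial, 5 of 20 for skeletal muscle, 1 of 9 for bone, cartilage and tendon, and 0 of 8 for keratinocyte markers. Skeletal muscle, bone and keratinocyte lists held ties at 0, which were credited to the first tumor in order. Among genes of fibroblasts, Mfap5, a microfibril protein, was at 0.0472 CPM in vehicle 4, or 0.00473 times the median of the other tumors, Clec3b was at 0.519 CPM, and the proteoglycan Lum was at 0.755 CPM. The Mfap5 value lies at the floor of the counts, so its ratio is imprecise. Pdgfra and Prrx1 in the same tumor were at 256 and 123 CPM, that is at 0.975 and 1.09 times the median of the others. The adipocyte genes Pck1 and Cidec were at 0.0426 and 0.0586 times, and the macrophage gene C1qa at 0.194 times. Pck1 and Cidec were at only 0.141 and 0.283 CPM in vehicle 4, so these ratios too rest on few reads. Apart from Pdgfra, these genes were chosen for comparison after their values were seen, and their part in the Col1a2 level was not tested.

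**Figure D5:**
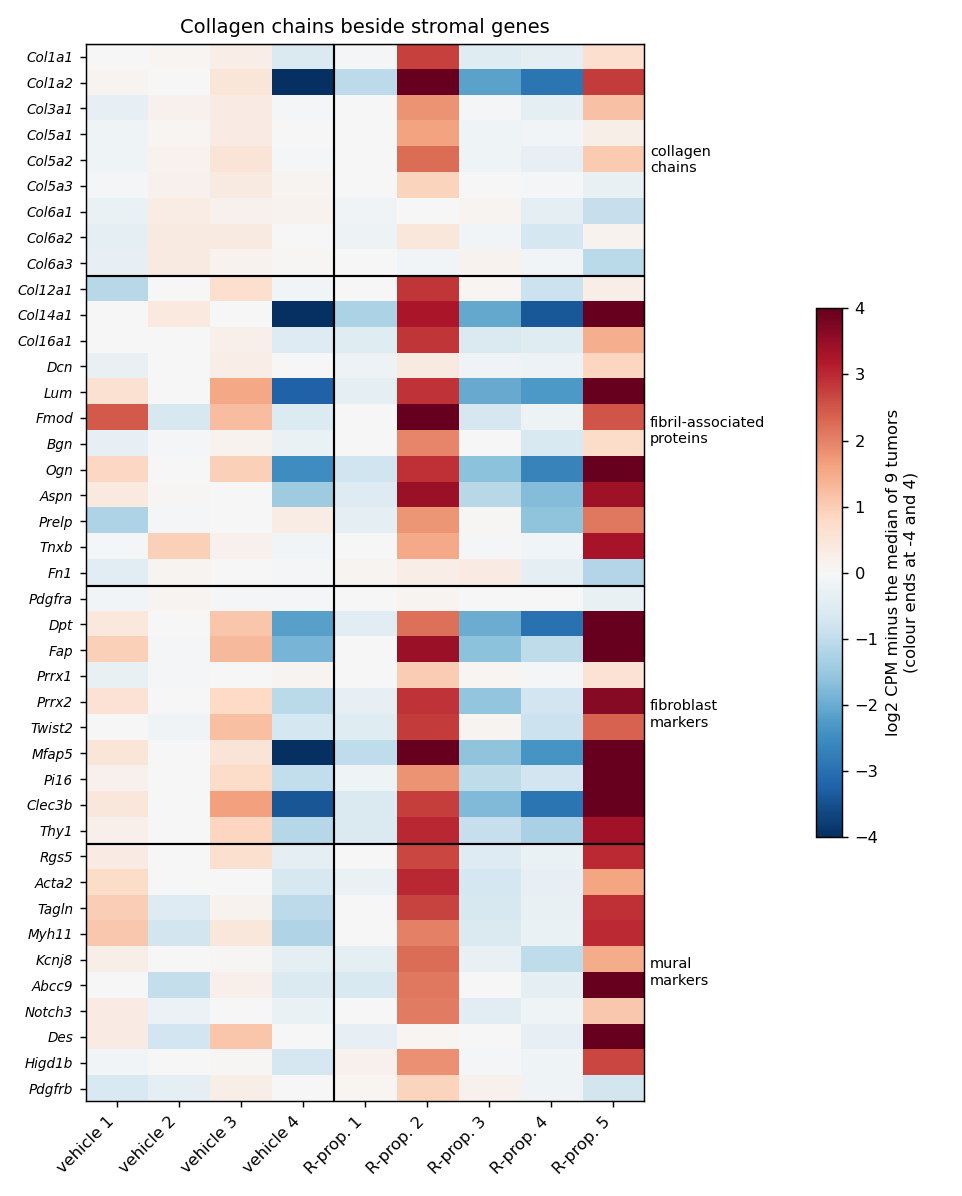
Log2 CPM minus the median of the 9 tumors (colour, ending at -4 and 4) for the 9 collagen chains, 12 fibril-associated proteins, 10 fibroblast markers and 10 mural markers (vertical) in each tumor (horizontal, vehicle left of the line). R-propranolol 2 is above the median from Col1a1 to Col5a3 and for most stromal genes, while Col1a2, Lum, Mfap5 and Clec3b are lowest in vehicle 4.

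Markers of muscle and fat were highest in R-propranolol 5. The skeletal muscle markers (20 genes, 14 tested) summed to 224464 CPM there. They summed to 561 and 531 CPM in vehicle 1 and vehicle 3, and to 40.8 to 66.6 CPM in the remaining tumors. Eno3, the most abundant per kilobase by the median of the 9 tumors, was at 6128 CPM in R-propranolol 5 and at most 57.1 CPM elsewhere. Within R-propranolol 5 other muscle genes were higher than Eno3, such as Acta1 at 41974 CPM. The adipocyte markers (10 genes, all tested) summed to 5498 CPM there, against 118 to 453 CPM elsewhere, and Fabp4 to 1259 CPM against at most 139 CPM. The macrophage markers (8 genes, all tested) summed to 566 to 1508 CPM in the vehicle group. In the R-propranolol group they summed to 1905 CPM in R-propranolol 2, 2048 CPM in R-propranolol 5 and 482 to 1093 CPM in the other tumors. Mrc1 was at 300 to 1071 CPM over all tumors. Keratinocyte markers (8 genes, 2 tested) summed to at most 18.3 CPM, with Trp63 at 0.875 to 8.46 CPM. Of 9 markers of bone, cartilage and tendon, 2 could be tested. The whole list summed to 17.2 to 28.2 CPM over all tumors, with Scx at 5.17 to 15.5 CPM, Ibsp at 0 in all 9 tumors and Sp7 at most 0.141 CPM. The part of these cell types in the collagen levels was not tested.

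The genes whose pattern was most like that of the 9 chains, by Pearson's r of their log2 CPM with the mean of the centred log2 CPM of the chains over 9 tumors, were Sema4f (r of 0.985), Cxcl5 (0.981), Clec4d (0.975), Col24a1 (0.971) and Dnm3os (0.962). They were picked as the highest of all tested genes, and the values are a description of these 9 tumors, in which R-propranolol 2 weighs heavily. For the same genes r without R-propranolol 2 was between 0.910 and 0.956. When R-propranolol 5 was left out, the 5 nearest genes were Sema4f, Creb3l1, Shisa5, Col24a1 and Cxcl5, with r of 0.986 to 0.991.

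Col1a2 had other neighbours than its partner chain. Chosen after the data had been seen, the 5 genes with the highest r with Col1a2 over 9 tumors were Sfrp2 (0.994), Pcsk5 (0.994), Cthrc1 (0.992), Srpx2 (0.986) and 3632451O06Rik (0.985). Col1a1 stood at position 695 of 13900 genes in that order, with r of 0.852, and at r of 0.958 without R-propranolol 2. Col5a2 and Col3a1 followed with r of 0.827 and 0.820 (0.746 and 0.697 without R-propranolol 2). Next were Col5a1 with 0.715, Col6a2 with 0.559 and Col5a3 with 0.397 (0.559, 0.397 and -0.256 without that tumor). Col6a1 and Col6a3 had r of -0.32 and -0.43 (-0.492 and -0.546 without it).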

How the data were processed

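RNA-seq libraries of 9 tumors were analysed, 1 per tumor, grouped by the treatment label. The authors aligned paired reads to mm10 with STAR and deposited raw counts per gene symbol from HTSeq. Versions, annotation and strandedness of the counting were not stated in the sources used here. HTSeq's totals for reads outside genes (13.4% to 15.4%) and ambiguous reads (1.81% to 1.98%) were left out.

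Genes were kept with filterByExpr (minimum count 10, minimum total 15), scaled by TMM and compared with the two-sided quasi-likelihood test of edgeR 4.0.16 in R 4.3.3, with Benjamini-Hochberg adjustment over 13901 genes. The fit was tested on simulated data. A second test was an exact permutation of mean log2 CPM (prior count 2) over 126 labellings. Alternatives used DESeq2 1.42.0, limma 3.58.1 (voom), other scalings and filters, and left out each tumor. Figures were drawn with matplotlib 3.10.9.

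The 9 chains, the gene lists and the tests were chosen with earlier results of these data known. Every chain is named. From each partner list the gene with the smallest p in each direction and the most abundant gene per kilobase are named, from each marker list the most abundant gene, and the 5 genes most like the mean of the chains, with and without R-propranolol 5. Abundance per kilobase was ranked by the median over the 9 tumors. Lengths are exon bases of the longest coding transcript in GENCODE M21. The titles of vehicle 1 and vehicle 2 begin alike, where those of all other tumors differ, and the tumors were taken as separate. No pair of libraries agreed within sampling noise, with a chi-square per gene of at least 12.4.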

Additional observations from a re-analysis of the deposited data

Results flagged for a closer look

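In 30 groups of 4 or 5 tumors (9 chains and 6 ratios in each treatment group) a single tumor was compared with the range of its group by Dixon's criterion, and 5 groups had a tumor beyond the 95% critical value. For 1 group taken alone chance gives about 1 in 20. The 30 groups share tumors and chains, so the count of 5 cannot be judged against that rate. Vehicle 4 was low for Col1a2, with a log2 CPM of 3.46, and for the log2 ratio of Col1a2 to Col1a1, at -6.33. R-propranolol 2 was high for Col5a1, with a log2 CPM of 10.76, and for Col5a3, at 10.42. R-propranolol 5 was low for Col6a3, with a log2 CPM of 9.72. The causes were not tested.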

How the results depend on the processing

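No chain was called at an adjusted p of 0.05 under any alternative run. DESeq2 called 2 genes, Dusp1 and Egr1, both at an adjusted p of 0.0285, and at an unadjusted p under 0.05 it gave 1 chain (Col1a2), 9 partner genes and 656 genes in all, against 0, 0 and 320. limma-voom gave 139 genes, no filter on low counts gave 626 genes and 2 partner genes (Adamts3 and Tll2), and summing vehicle 1 and vehicle 2 gave 100 genes. Leaving out 1 tumor at a time gave 103 to 737 genes, 0 to 11 partner genes (11 without R-propranolol 4, 5 without R-propranolol 3, 3 without R-propranolol 1) and a median of the chains from -0.074 (without R-propranolol 2) to 0.56. Among the 9 chains and the 15 named partner genes, 6 turned in sign. Col5a3 was -0.12 with library size alone, -0.048 with voom, -0.0038 without a filter and -0.022 with vehicle 1 and vehicle 2 summed. Fn1 was -0.087, -0.084 and -0.012 with library size alone, voom and the sum, and P4hb -0.087 and -0.0042 with library size alone and the sum. Over the tumors left out in turn, Col5a1 ranged from -0.074 to 0.56, Col5a3 from -0.24 to 0.10, Fn1 from -0.11 to 0.19, P4hb from -0.11 to 0.13, Itgb1 from -0.11 to 0.033 and Loxl2 from -0.36 to 0.0052. With a replicate block over numbers 1 to 4, Itgb1 was 0.032 and Loxl2 0.0073, and no call changed. Without R-propranolol 5 the muscle and fat markers turned. Skeletal muscle went from 14 above and 0 below 0 to 0 and 11, with a median of -3.04. Adipocytes went from 10 and 0 to 0 and 10, and chain modification from 13 and 6 to 17 and 2. Whether the replicate numbers pair the tumors is not known from the labels. The deviations of same-numbered tumors correlated at -0.30, 0.07, -0.64 and 0.53, and values of such mixed sign cannot decide it. Measuring lengths over all annotated exons, an alternative added after the data had been seen, moved the median ratio of Col3a1 to Col1a1 from 3.22 to 2.02, of Col6a3 to Col6a1 from 0.698 to 0.630, of Col1a2 to Col1a1 from 0.242 to 0.115, of Col6a2 to Col6a1 from 0.370 to 0.221, of Col5a2 to Col5a1 from 0.537 to 0.374 and of Col5a3 to Col5a1 from 1.85 to 1.68. The lowest count of a chain in any tumor was 231. Apart from the length used, the causes were not tested.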
